A study of Gallus gallus with 24 samples.

Results

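The left and the right ventricle of unoperated chick embryos were compared at embryonic day 6 (E6), on 4 of the 24 arrays of a study of chick heart development. The members were all probe sets other than array controls, and the measure was the log2 value of the left pool minus that of the right pool. The 24 arrays held 12 pools of dissected tissue, each made from 6 to 12 specimens before RNA isolation, and each pool was split over 2 arrays. Left and right ventricles were pooled separately at E6, E8 and E10 of normal development and at E8 after a partial ligation of the left atrial appendage performed on day 4. Pools of both ventricles together came from E4, E5 and E6, and from E5 after banding of the outflow tract. The labels name no genotype, strain or sex, and they do not say whether the left and right pools came from the same hearts. Each side at E6 was therefore 1 pool: its 2 arrays are technical repeats, their spread leaves out the variation between embryos, and no p-value can be had from these 4 arrays alone.

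At this age the chick heart is being divided into 4 chambers. The left ventricle takes its muscle mainly from the first heart field and will pump into the body circulation, while much of the right ventricle and of the outflow tract above it comes from the second heart field. In the mouse the transcription factors TBX5 and HAND1 mark the left ventricle and HAND2 is stronger in the right, and both chambers share a program of contractile genes. Around the muscle lie endocardium, epicardium and the cushion mesenchyme that forms valves and septa, so a dissected ventricle holds several cell types.

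Defining genes of ventricular muscle stood near the top of the measured range on both sides. The ventricular myosin heavy chain MYH15 read 15.98 and 16.09 on the 2 left arrays and 15.88 and 15.88 on the right arrays. The ventricle-specific transcription factor IRX4 read 14.21 and 14.23 on the left and 14.13 and 14.09 on the right. The ventricular light chain MYL2 read 15.33 and 15.42 on the left and 15.23 and 15.26 on the right. The left arrays lay above the right arrays for each of these genes, with differences of 0.15, 0.11 and 0.14 on the log2 scale. Array medians at E6 lay between 4.09 and 4.13. Signal of the 3′ minus the 5′ control probe set, a sign of RNA integrity, was 0.38 for actin on the left and 0.43 on the right, and -0.32 and -0.27 for GAPDH. The 29 kept probe sets of genes on the W chromosome, which only female birds carry, had a median left minus right difference of 0.12.

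Of 38439 probe sets, 20335 were kept because at least 1 pool mean was at or above the 50th percentile of the table, 4.09. A kept probe set was counted as different when the pools differed at least 2-fold and the arrays of the left did not overlap those of the right. By this rule, which gives no p-value, 916 probe sets differed, or 4.5% of those kept. The left was higher for 308 of them (1.51%) and the right for 608 (2.99%). They stood for 220 named genes on the left and 397 on the right. The differences on the right were also slightly wider, with a median of -1.39 against 1.28 on the left. Of the 608 right-sided and 308 left-sided probe sets, 112 and 34 differed at least 4-fold, and 23 and 9 at least 8-fold. Most kept probe sets were nearly equal, with 69.3% of them under 1.25-fold and a median absolute difference of 0.19. The duplicate arrays of the left pool were 2-fold apart or more for 41 kept probe sets and those of the right pool for 27. Near the threshold, 134 counted probe sets differed by less than 2.1-fold, and 168 probe sets just outside differed by between 1.9-fold and 2-fold. The lower side read under the filter level of 4.09 for 59 of the left-sided probe sets (19.2%) and for 164 of the right-sided ones (27.0%), so the size of those differences rests on signals among the dimmest measured.

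**Figure D1:**
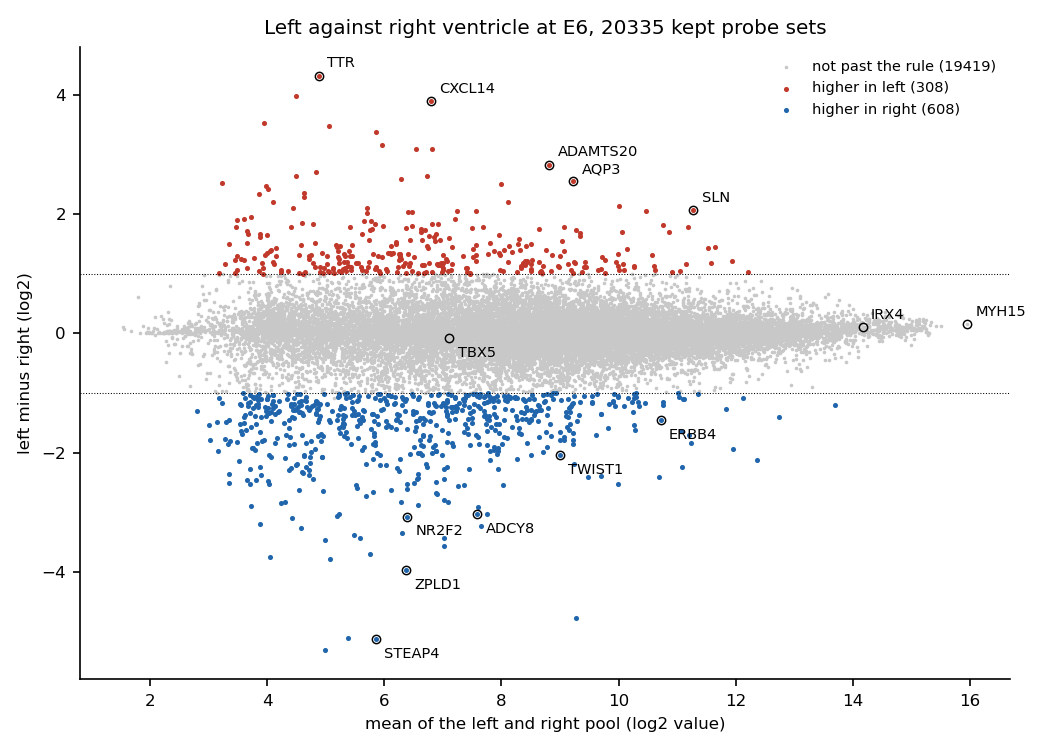
Left minus right difference at E6 (vertical axis, log2) against the mean of both pools (horizontal axis, log2 value) for the 20335 kept probe sets. Red points (308) passed the 2-fold rule with the left higher, blue points (608) with the right higher, grey points did not pass, dotted lines mark 2-fold, and the spread narrows towards bright muscle genes such as MYH15.

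A fit with limma over all 12 pools stood in for the missing second pool. Its spread came from how the left-right difference varied between the later pairs. The fit called 0 probe sets for side at E6 at an adjusted p of 0.05 (0%), although 2126 had an unadjusted p under 0.05. That spread also holds the distance of the E6 pool of both ventricles from the log2 midpoint of its sides. The differences below are thus measurements of 2 pools of embryos.

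Among genes higher in the left, the 15 widest differences ran from TTR down to VCAM1. TTR encodes transthyretin, a carrier of thyroid hormone made mainly by the liver. It read 7.25 and 6.83 on the left arrays and 2.19 and 3.27 on the right, a difference of 4.32. The pool of both ventricles at E6 read 10.52 and 10.56, above either side.

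CXCL14, a secreted chemokine, read 8.75 and 8.74 on the left and 4.86 and 4.85 on the right, which is 14.9-fold. Its duplicate arrays, which are technical repeats of a pool, lay close together. ADAMTS20, a secreted metalloprotease that acts on extracellular matrix, read 10.20 and 10.26 on the left and 7.42 and 7.38 on the right. All 4 of its kept probe sets passed the rule, with differences from 2.05 to 3.09. NDNF, a secreted neurotrophic factor, had 3 kept probe sets that all passed, with differences from 2.20 to 2.51.

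Several receptors and membrane proteins belonged to the same group. AGTR1, the type 1 receptor of angiotensin II, read 7.44 and 7.63 on the left and 4.34 and 4.42 on the right. HTR2A, a serotonin receptor, read 6.16 and 6.21 on the left and 3.32 and 3.64 on the right. AQP3, a channel for water and glycerol, read 10.49 and 10.52 on the left and 7.97 and 7.94 on the right. These 3 genes differed by 3.16, 2.71 and 2.55. The membrane transporter SLC46A2 differed by 3.09 and GABRG1, a subunit of the GABA-A receptor, by 2.33. VCAM1, an adhesion molecule, differed by 2.10 at the named probe set and by 0.76 at its brighter one, where the arrays did not overlap either but the difference was under 2-fold. The left-sided genes also held OCM3, a calcium-binding protein of the parvalbumin family (3.37), METTL21EP of the methyltransferase-like family (2.59), the sialyltransferase ST8SIA5 (2.29) and SEC16B, a protein of endoplasmic reticulum exit sites (2.21). MCM6, a subunit of the replicative helicase, differed by 2.64 at 1 dim probe set only, while its brightest probe set differed by 0.17.

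Among genes higher in the right, STEAP4, a metalloreductase of cell membranes, differed most. It read 3.12 and 3.48 on the left arrays and 8.47 and 8.37 on the right, a difference of -5.12 or 34.8-fold, and its other kept probe set differed by -5.31. A gap between the groups was required by the rule at both probe sets, and the duplicate arrays are technical repeats of a pool. LOC418543, a gene with no assigned name, read 6.73 and 7.04 on the left and 11.64 and 11.66 on the right. ZPLD1, a membrane protein with a zona pellucida-like domain, read 4.87 and 3.90 on the left and 8.31 and 8.39 on the right, a difference of -3.97. Its left arrays were further apart than most, and its other kept probe set differed by -2.14.

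Regulators and enzymes made up much of the rest. NR2F2, the nuclear receptor COUP-TFII known in the mouse for atrial and venous identity, read 4.80 and 4.92 on the left and 7.82 and 8.03 on the right. DIO3, the deiodinase that inactivates thyroid hormone, read 2.92 and 2.96 on the left and 6.24 and 6.17 on the right. ADCY8, a calcium-stimulated adenylyl cyclase, read 6.02 and 6.12 on the left and 9.21 and 8.99 on the right. The differences were -3.07, -3.27 and -3.03, and that left and right arrays did not overlap was required by the rule. HTRA3, a secreted serine protease, differed by -3.23 with both of its kept probe sets past the rule, and the hyaluronan-degrading enzyme HYAL2 differed by -3.06. CD3E, known as a chain of the T cell receptor complex, differed by -3.38.

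For 6 of the 15 right-sided genes, the wide value came from 1 or more probe sets that the others of the gene did not share. ETS1, a transcription factor of endothelial and blood cells, differed by -3.56 at the named probe set, whereas its 4 other kept probe sets lay between 0.01 and 0.18. PRRC2C, a proline-rich RNA-binding protein, differed by -3.43 there, by -1.99 at another probe set past the rule and by -0.05 at its brightest. CSRNP1, a nuclear protein, differed by -3.43 and -0.06, and the sialyltransferase ST8SIA6 by -3.34 and -0.60. MYOZ1, a Z-disc protein best known from fast skeletal muscle, differed by -3.19 and 0.01. COBL, an actin nucleator, differed by -3.09 at 1 of its 4 kept probe sets, and the others differed by -0.85, 0.08 and 0.14. These values belong to single probe sets, or to 2 for PRRC2C, and not to the genes as a whole. Of 4551 genes with several kept probe sets, 99 had more than 1 past the rule and all in the same direction, and 3 had probe sets past it in opposite directions.

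**Figure D2:**
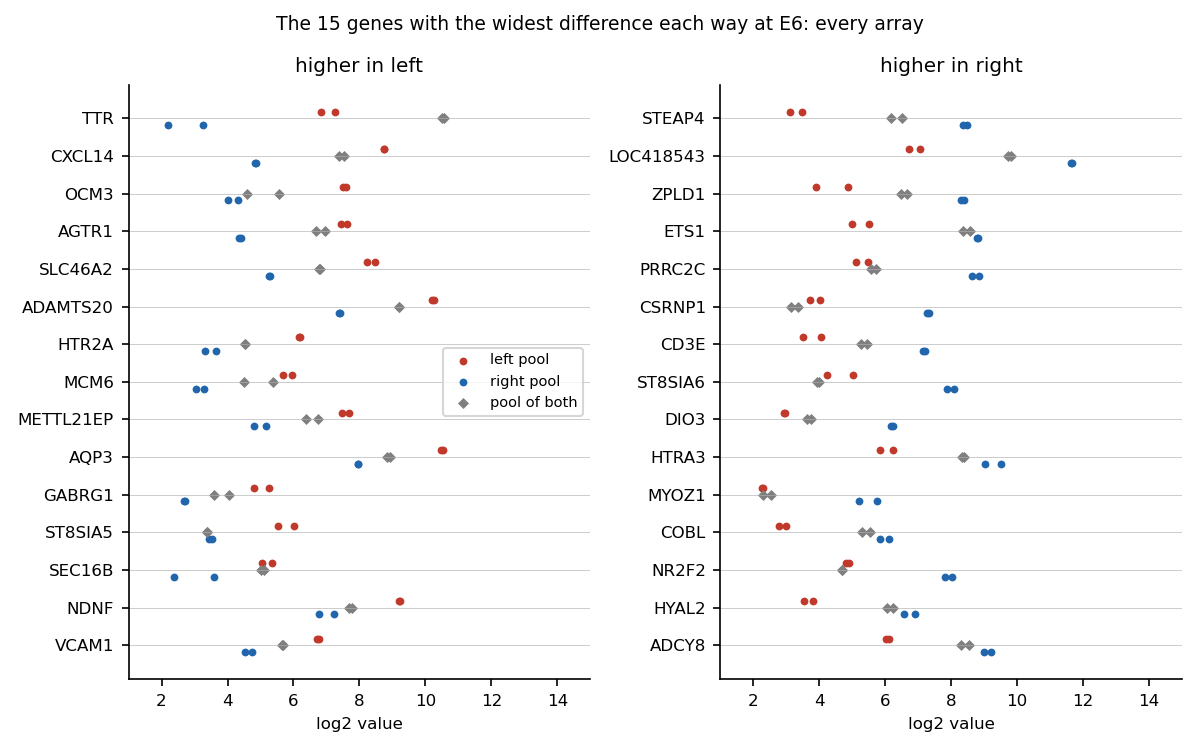
Log2 value on every array for the 15 genes with the widest difference each way at E6, 1 probe set a gene. Red circles are the 2 left arrays, blue circles the 2 right arrays and grey diamonds the 2 arrays of the pool of both ventricles, which for TTR lie at 10.52 and 10.56, above both sides.

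The genes best known for chamber identity mostly did not pass the rule at E6. TBX5 read 7.10 and 7.05 on the left and 7.22 and 7.08 on the right, so the groups overlapped, and its other kept probe set differed by 0.67. HAND1 read 6.73 and 6.77 on the left and 6.52 and 6.12 on the right, a difference of 0.42. HAND2 read 10.67 and 10.73 on the left and 10.86 and 10.83 on the right, a difference of -0.14. None of these 3 differences reached 2-fold.

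Other chamber and patterning genes gave differences of similar size. TBX20, a T-box factor of chamber muscle, differed by 0.43, and the Iroquois genes IRX1 and IRX2 by -0.28 and 0.07. ISL1, a marker of the second heart field, differed by -0.64 at signals between 3.58 and 4.61. NPPA, the atrial natriuretic peptide, differed by 0.26. The connexins GJA5 and GJA1 differed by 0.48 and 0.02. BMP10, a growth factor of trabecular muscle, differed by 0.21, and NRG1, the endocardial ligand that drives trabeculation, by -0.43. Of the 15 kept genes listed for sidedness in vertebrate hearts (median 0.11), 1 passed. This was SEMA3C, a guidance cue needed for outflow tract septation, which read 7.71 and 7.72 on the left and 6.03 and 6.06 on the right, a difference of 1.67. FGF10 and HEY2 were under the signal filter. NPPB and MYL7 were not paired with a probe set in the annotation used.

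Gene lists were read with 1 probe set a gene, the brightest kept one. On that scale 9575 genes were measured, with the left higher for 110 (1.15%) and the right for 263 (2.75%), and with a median difference of -0.03. Since tissue was pooled whole, fewer cells of a type and less RNA per cell cannot be told apart in any of these lists.

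Contractile genes were close to equal at their brightest probe sets. Of 32 sarcomere genes 0 passed the rule, their median was 0.10, and single values ran from -0.45 to 0.61. TTN is counted there by its brightest probe set, although 6 of its 11 kept probe sets passed on the right, as given below. The 26 cell cycle genes also held 0 that passed, with a median of -0.01 that turned to 0.03 when each array was centred on its median. The same count of 0 held for 16 genes of oxidative phosphorylation (median 0.08), 17 of glycolysis (0.09), 33 ribosomal proteins (0.10), 18 of the hypoxia response (-0.15) and 12 stress and immediate early genes (-0.21). Among these lists the ribosomal proteins were the most uniform, with 32 of 33 above 0 and none beyond 0.20. A small excess on the left was also read at the EF1A and GAPDH controls, but actin did not share it. The actin control probe sets read 14.39, 14.01 and 14.155 on the left against 14.42, 13.99 and 14.21 on the right. Whether these shifts have a common source was not tested.

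Calcium handling held genes past the rule on either side. SLN, sarcolipin, the small inhibitor of the calcium pump of the sarcoplasmic reticulum, read 12.27 and 12.35 on the left and 10.26 and 10.23 on the right, which is 4.18-fold. ATP2A3, a calcium pump of the endoplasmic reticulum, went the other way, with 10.21 and 10.10 on the left and 11.39 and 11.31 on the right. CAMK2D, a calmodulin-dependent kinase, differed by -1.06. The remaining 15 of 18 genes did not reach 2-fold, among them the calcium release channel RYR2 (0.63), the main cardiac pump ATP2A2 (0.20) and its inhibitor PLN (0.33). The 11 ion channels and connexins held 0 that passed, with a median of -0.05 that was 0.05 without the second array of each pool. In fatty acid metabolism (median 0.01) 1 of 19 genes passed: the fatty acid transporter CD36 read 8.31 and 8.37 on the left and 9.88 and 9.93 on the right.

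Trabecular and transcription factor lists each had exceptions on the right. ERBB4, the neuregulin receptor of heart muscle, read 10.04 and 9.95 on the left and 11.48 and 11.41 on the right, a difference of -1.45, while the other 6 genes of its list did not pass. In all, the median of the 7 was -0.15, and it was 0.04 without the first array of each pool. Of 19 chamber transcription factors, NR2F2 and IRX5 (-1.03, at signals between 3.58 and 4.75) passed on the right and 0 on the left. The cardiac factor MEF2C was just short of 2-fold on the left, at 0.97.

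Mesenchyme and matrix lists are read beside all 9575 genes, of which 5307 were below 0. Among 24 cushion and valve markers 3 passed, all higher in the right, and 19 were below 0, with a median of -0.18. HAS2, which makes the hyaluronan of the cardiac jelly, read 6.12 and 6.51 on the left and 8.56 and 8.60 on the right. TWIST1, a transcription factor of cushion mesenchyme, read 8.03 and 7.93 on the left and 10.03 and 10.00 on the right. HAPLN1, a link protein of hyaluronan matrix, differed by -1.88. All 3 genes were at least 3-fold higher in the right, yet POSTN (0.24) and VCAN (0.35), matrix genes of the same cushions, were slightly higher in the left.

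Of 38 genes of the extracellular matrix, 4 passed on the right and 0 on the left, 30 were below 0, and the median was -0.26. COL9A1, a chain of collagen IX, differed by -2.20, COL6A3, a chain of collagen VI, by -1.97, elastin (ELN) by -1.70 and COL12A1, a fibril-associated collagen, by just over 2-fold. The main fibrillar collagens were below 2-fold, at -0.80 for COL1A1, -0.63 for COL1A2 and -0.05 for COL3A1.

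Signalling lists were read in the same way. In the BMP and TGF-beta pathway 4 of 26 genes passed, all higher in the right, and 17 were below 0 (median -0.25). Among ligands, INHBB, an activin subunit, read 4.95 and 4.81 on the left and 7.77 and 7.63 on the right, and BMP5 differed by -1.14. Downstream, the transducer SMAD9 differed by -1.32 and ID3, a transcriptional target of BMP signals, by -1.87. Receptors did not pass, and BMPR1A was higher in the left at 0.84.

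In WNT signalling 3 of 19 genes passed, all on the right (median -0.20). WIF1 and SFRP2, secreted WNT antagonists, differed by -1.69 and -1.27, and AXIN2, a feedback target of the pathway, by -1.04. The receptor FZD4 was higher in the left, at 0.94, and FZD7 was higher in the right by just under 2-fold, so neither passed the rule.

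In FGF signalling 3 of 16 genes passed, all on the right, 14 were below 0, and the median was -0.47. FGFR3, a receptor, differed by -1.14 and FGF13, an intracellular member of the family that binds sodium channels, by -1.15. The ligand FGF1 differed by -1.49, but at signals between 2.54 and 4.17, and its other kept probe set differed by 0.42. The feedback inhibitors SPRY1 and SPRY2 read -0.79 and -0.34 and the target ETV5 -0.53, under the threshold. Of 10 retinoic acid genes and 11 NOTCH genes 0 passed, with 8 and 6 below 0 and medians of -0.24 and -0.12. In each of these counts the share on the right is to be read against 2.75% of all genes, and each sign count against 5307 of 9575. The lists are small and overlap in some genes, and no difference between a list and other genes was tested.

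**Figure D3:**
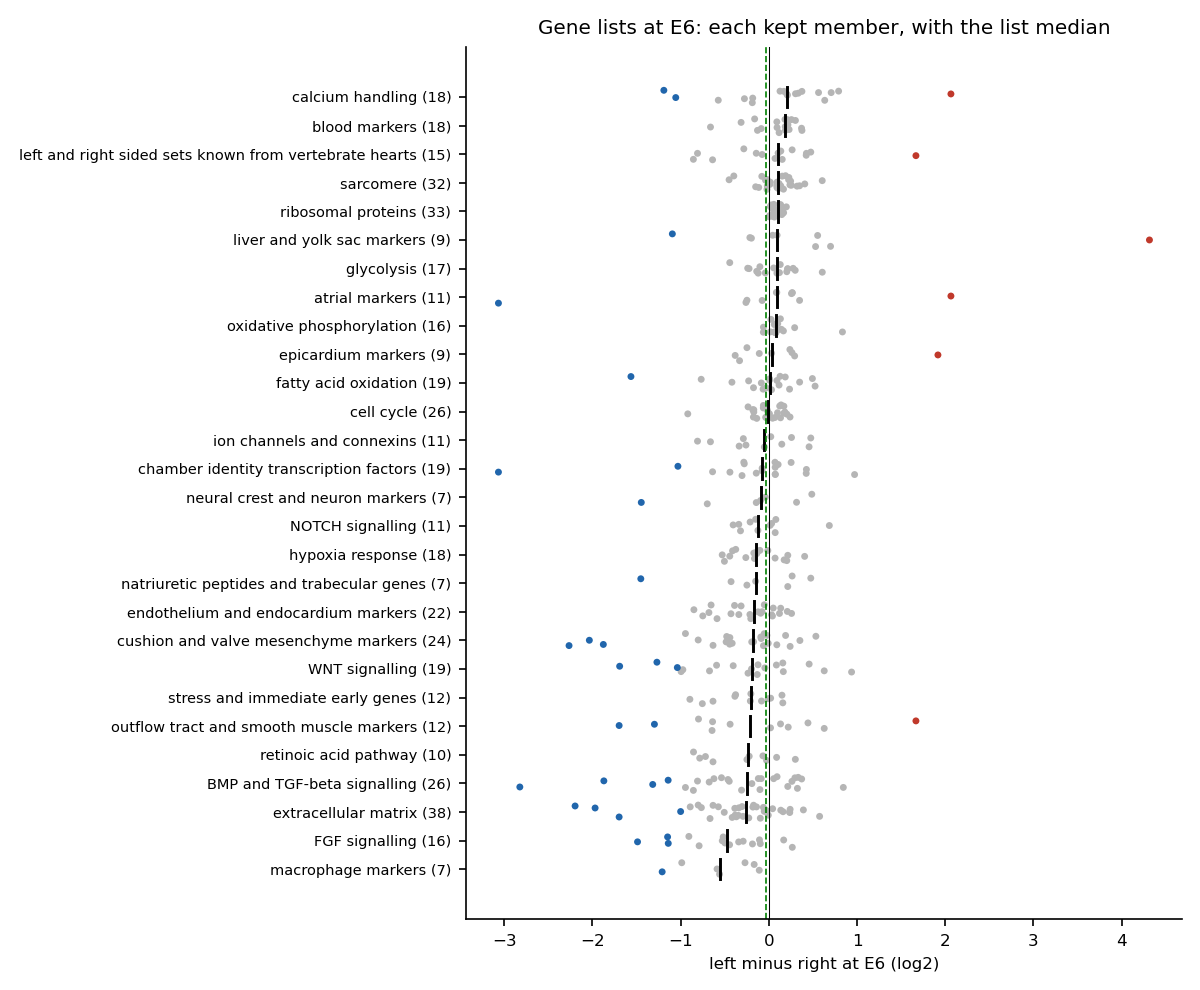
Left minus right difference at E6 (log2) for each kept member of 28 gene lists, 1 point a gene, with the number of members in brackets. Red and blue points passed the 2-fold rule with the left or right higher, grey points did not, black bars are list medians, and the dashed line is the median of all 9575 genes, -0.03. The medians run from 0.21 for calcium handling to -0.56 for macrophage markers.

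Markers of other tissues and cell types were averaged over the kept members of each list. All 7 kept macrophage markers were lower in the left, with a median of -0.56, and C1QB, a complement subunit of macrophages, passed the rule at -1.21. Their mean log2 level was 7.14 and 7.17 on the left arrays and 7.69 and 7.73 on the right arrays, and PTPRC, MARCO and C1QA were under the signal filter. Endothelial and endocardial markers had a median of -0.16 with 0 of 22 past the rule. Of the 18 blood markers 0 passed, 13 were above 0, and their mean level was 11.15 and 11.16 on the left and 11.05 and 11.09 on the right. The part of any of these cells in the differences of other genes was not tested.

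Epicardial markers were mixed, with a median of 0.03: UPK1B, a uroplakin of mesothelium, read 4.60 and 4.52 on the left and 2.63 and 2.65 on the right. Its other kept probe sets differed by 3.52, also past the rule, and by 0.98, so the size of its difference depended on the probe set. The other 8 of 9 genes, among them TCF21 (-0.38) and TBX18 (0.03), did not pass. In outflow tract and smooth muscle, SEMA3C was higher in the left, while ELN and PLXNA2, a semaphorin receptor, were higher in the right (-1.30), and the median of the 12 genes was -0.21. Atrial markers were split too, with SLN higher in the left and NR2F2 higher in the right among 11 genes (median 0.09). Of 7 neural markers (median -0.09) STMN2, a protein of growing axons, passed, at -1.45. Its left and right arrays read between 2.44 and 4.07, all under the filter level. The crest markers SOX10, FOXD3, TFAP2A and TFAP2B were under the filter.

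Liver and yolk sac genes differed between pools. The mean level of 9 such genes was 5.84 and 5.85 on the left arrays, 5.25 and 5.39 on the right arrays and 9.38 and 9.33 on the arrays of both ventricles. Between left and right TTR passed in favour of the left and VTN, vitronectin, in favour of the right (-1.09), while ALB, albumin, differed by -0.20 and the median of the 9 was 0.09. In the ligated pair at E8 the median left minus right difference of the list was 2.80, and TTR read 9.30 in the left pool against 5.70 in the right. The liver markers AFP, APOH, FABP1 and HNF4A were under the filter in all 12 pools. Whether these transcripts have a part in the values of the pool of both ventricles, or of the ligated pair, given next was not tested.

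The pool of both ventricles at E6 was a separate preparation and allows each difference to be placed. It lay between left and right for 74.7% of the 308 left-sided probe sets and for 59.2% of the 608 right-sided ones. These probe sets were chosen because their sides lay far apart, which leaves a wide range between them. The share over all kept probe sets is not given here, so these shares do not measure agreement of the pool with the differences. Of the left-sided probe sets the pool of both lay nearer the left for 130, nearer the right for 100, beyond the left for 47 and beyond the right for 31. Of the right-sided probe sets it lay nearer the right for 206, nearer the left for 154, beyond the right for 51 and beyond the left for 197. The last group is the largest departure from a mixture of both sides. Its median level was 6.63 in the right pool, 4.86 in the left and 4.17 in the pool of both. This ranking restates how the group was formed. NR2F2 belonged to the group beyond the left, at 4.69 and 4.68 in the pool of both, as did CSRNP1, ST8SIA6, ERBB4, COL6A3, WIF1 and IRX5. In the group nearer the right, the median levels were 7.87, 5.95 and 7.26 in the same order. On a log2 scale a mixture of equal shares of both sides itself lies nearer the higher side. The share of tissue from each side is not in the labels. This placing therefore does not show that the left pool stood low. HAS2, TWIST1, INHBB and ADCY8 belonged to this group, as did ELN and ZPLD1, for which the pool of both lay about midway. HAS2, for example, read 8.29 and 8.30 in the pool of both.

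These groups were formed after the values were seen and carry no test, but they differed in other measures. Where a gene had a further kept probe set, it also passed the rule on the right for 64 of 93 probe sets (68.8%) in the group nearer the right and for 35 of 117 (29.9%) in the group beyond the left. The median of the further probe sets was -1.12 in the former and -0.24 in the latter. At E8, 48.1% of the former and 18.8% of the latter passed the rule on the right again, and at E10 21.4% and 38.1%.

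TTN, the giant spring protein of the sarcomere, had probe sets that differed among themselves, and it was added after its values were seen. Its 2 brightest probe sets differed by 0.27 and 0.10 in favour of the left, whereas 6 of its 11 kept probe sets passed the rule on the right, with differences from -2.19 to -1.02. For all 6 the pool of both lay beyond the left. At the probe set with the widest of these, the arrays read 3.36 and 3.46 on the left, 5.89 and 5.31 on the right and 2.96 and 3.005 in the pool of both. The differences of the 6 probe sets ran from -0.27 to 1.14 at E8, where the one at 1.14 passed the rule on the left. They ran from -0.41 to 0.52 after ligation, with none past the rule. At E10 they ran from -1.65 to 0.04, and those at -1.65 and -1.22 passed on the right.

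**Figure D4:**
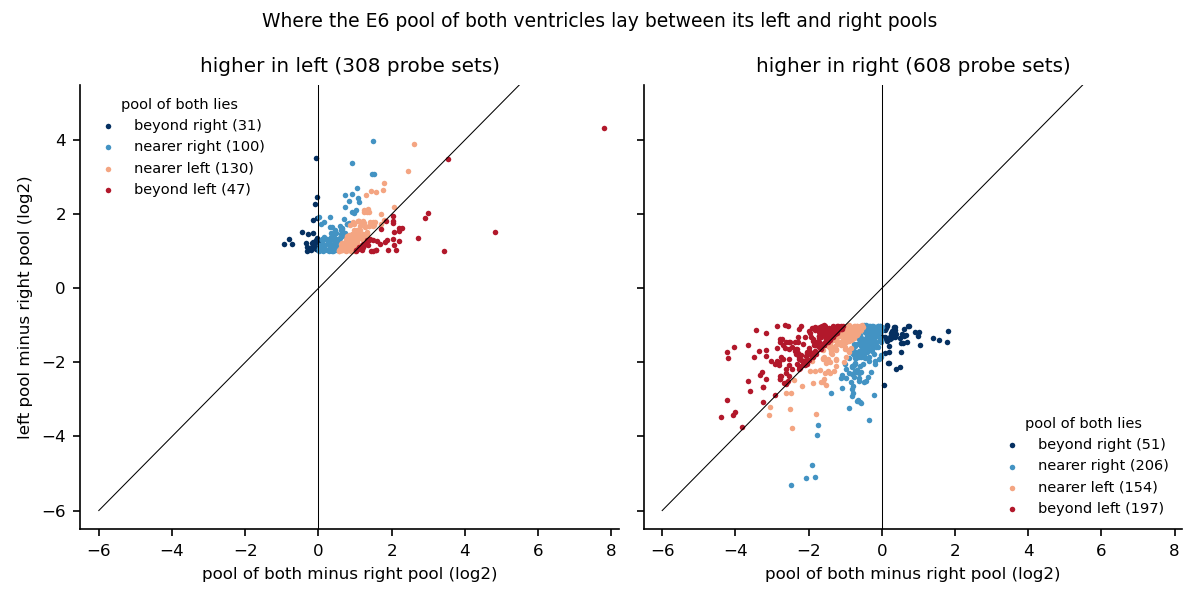
Left minus right pool (vertical axis, log2) against the pool of both ventricles minus the right pool (horizontal axis, log2) at E6, for the 308 left-sided and 608 right-sided probe sets. The vertical line marks a mixed pool equal to the right pool and the diagonal one equal to the left pool, and 197 right-sided probe sets lie beyond the diagonal.

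The later pairs of left and right pools show which E6 differences were seen again. At E8 the same rule counted 1.06% of the kept probe sets for the left side and 2.99% for the right. After ligation at E8 the shares were 1.07% and 1%, and at E10 they were 2.54% and 3.6%. Of the 308 left-sided probe sets at E6, 62 passed again on the left at E8, 59 after ligation and 62 at E10, and 8, 2 and 28 passed on the opposite side. Of the 608 right-sided ones, 198, 104 and 145 passed again on the right, and 8, 8 and 35 on the left. By sign alone, 66.9% of the left-sided and 72.9% of the right-sided probe sets kept their direction at E8, against 56.4% of all kept probe sets with the left higher at E6 and 56.4% of those with the right higher. At E10 the shares were 49.0% against 49.9% for the left and 69.2% against 39.7% for the right. Across all 20335 kept probe sets, which share arrays and are not independent, the E6 difference had a Pearson r of 0.34 with that at E8, 0.29 with that after ligation and 0.12 with that at E10.

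All 4 pairs passed the rule in the same direction for 33 of the 308 left-sided and 38 of the 608 right-sided probe sets. At E6 alone, 189 and 277 passed. The same shares over all kept probe sets are not given here, so these counts cannot be called many or few. SLN had differences of 2.06, 1.90, 2.05 and 1.69 at E6, at E8, after ligation and at E10. HTR2A had 2.71, 2.56, 2.51 and 2.11, and SEC16B 2.21, 1.89, 1.09 and 2.33. On the right, ZPLD1 had -3.97, -2.55, -2.27 and -3.24, ADCY8 -3.03, -2.54, -1.54 and -2.92, and CD36 -1.56, -1.10, -1.01 and -1.05. These genes are given here because they passed the rule on the same side in all 4 pairs, the ligated pair included. That they kept their side restates this choice, and each pair held 1 pool a side.

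Other wide differences at E6 were small in every later pair. AQP3 went from 2.55 at E6 to -0.61, -0.17 and -0.68, while its level in the left pools went from 10.50 at E6 to 6.02 at E8 and 2.69 at E10. METTL21EP went from 2.59 to 0.14, 0.05 and -0.02. Both of its sides were higher at E8 (8.37 and 8.23) and E10 (9.10 and 9.12) than at E6. After ligation its left pool read 7.51, against 7.58 at E6. DIO3 went from -3.27 to 0.04, 0.54 and -0.02, since only the right pool at E6 read above 4 among the left and right pools. MYOZ1 went from -3.19 to within 0.06 of 0 in all later pairs. Both of its sides read between 2.22 and 2.29 there, under the filter level, so a later difference could not be judged. Of the 15 left-sided and 15 right-sided genes, 5 each passed the rule at E6 alone.

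TBX5 showed the opposite course. It differed by -0.08 at E6 and then by 2.32 at E8, 2.004 after ligation and 2.20 at E10, with 8.03 on the left against 5.71 on the right at E8. HAND1 went from 0.42 to 1.23, 1.51 and 0.75, and it was past the rule on the left at E8 and after ligation. BMP10 went from 0.21 to -0.79, -0.52 and -2.24. ERBB4 had -1.45 at E6, -1.60 at E8, -0.32 after ligation and -3.20 at E10. FGF13 had -1.15, -2.15, -0.30 and -3.09, so neither was past the rule after ligation.

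**Figure D5:**
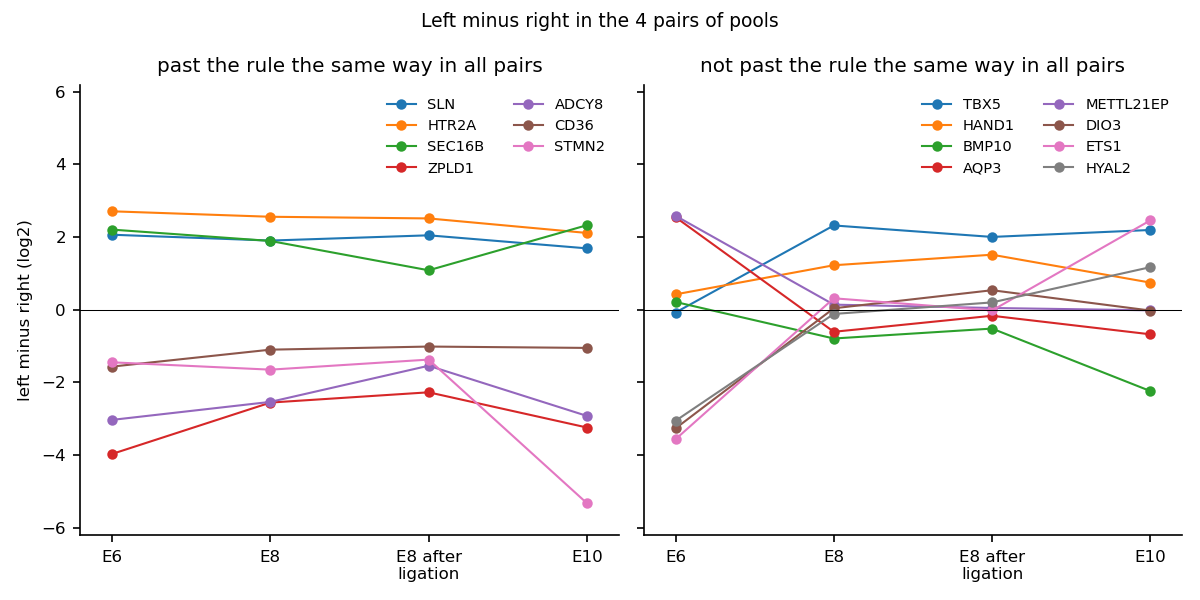
Left minus right difference (log2) in the 4 pairs of pools for genes past the rule in the same direction in all pairs (left panel) and for genes that were not (right panel). Each line is 1 probe set of 1 gene and each point 1 pair of pools. TBX5 lies at -0.08 at E6 and between 2.004 and 2.32 later, while AQP3, DIO3 and METTL21EP are wide at E6 only.

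The limma fit over 12 pools tested side in the 3 later pairs, an estimate that uses no E6 pool although its spread does, and called 45 probe sets (0.221%), 24 left-sided and 21 right-sided. Of the 24, 22 were also higher in the left at E6 and 12 passed the 2-fold rule there, with a median E6 difference of 0.93. They included SLN (1.88 ± 0.11, SE, over the later pairs, adjusted p = 0.0367), HTR2A (2.40 ± 0.15, adjusted p = 0.0367) and a probe set of ADAMTS20 (1.49 ± 0.12, adjusted p = 0.0459). Chosen after their values were seen, COL8A2, a chain of collagen VIII, differed by 1.27 at E6, and the adhesion proteins CADM2, NRXN3 and CDH22 by 1.81, 1.01 and 1.11. Of the 21, 16 were higher in the right at E6 and 3 passed the rule there, among them ZPLD1 (-2.69 ± 0.20, adjusted p = 0.0459) and, also chosen after its values were seen, the neuropeptide NPY at -1.46. MARF1 passed at E6 in the opposite direction, at 1.30. For comparison, 49.9% of all kept probe sets were higher in the left at E6. The 2-fold rule was passed there by 1.51% on the left and by 2.99% on the right.

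TBX5 was among the 45, with 2.17 ± 0.12 over the later pairs by limma (adjusted p = 0.0367). The limma contrast of the E6 difference against the later ones called 0 probe sets (0%), with 2203 at an unadjusted p under 0.05, and gave TBX5 -2.25 ± 0.24 (SE, adjusted p = 0.395) and AQP3 3.03 ± 0.32 (adjusted p = 0.395). No gene is thereby shown to differ between left and right at E6 otherwise than later. The count of 45 depended on few pools: it was 0 without the first array of each pool, 0 without the E6 pool of both ventricles and 2 without the ligated pair.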

How the data were processed

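The log2 values were deposited by the authors as 1 table of 24 arrays with biotin-labelled cRNA, and the tools named per the submitters' processing notes are GCRMA and MAS5. Which tool produced these values, and in which version, is not given in the sources used here. Values were used as deposited. The number of arrays limits the precision. The 96 control probe sets were left out. Gene symbols came from GEO's platform annotation: 27168 probe sets had 1 symbol, 177 several and 11094 none, and the Entrez IDs of 26853 were found in the RefSeq table for GRCg7b.

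The 2 arrays of a pool were averaged. Between pools, a difference of at least 2-fold with no overlap of arrays was counted, without a p-value. A two-sided limma fit (version 3.58.1, under R 4.3.3, with lmFit and eBayes) was made to the 12 pool means with stage and treatment as a block of 7 levels and side coded 0.5, 0 and -0.5, separately for E6 and for the 3 later pairs, leaving 3 residual degrees of freedom. Adjusted p-values are Benjamini-Hochberg values over 20335 probe sets. Their error comes from how the left-right difference varied between the later pairs and how far the E6 pool of both lay from the log2 midpoint of its sides. It holds no variation between pools of a condition. The fit places a mixed pool at that midpoint, whereas a mixture of equal shares lies nearer the higher side. Wide E6 differences can therefore carry a larger error. Both steps were run on simulated data. For limma these data took their spread from the fit and placed the pool of both at the log2 midpoint. That run therefore cannot show how the fit treats a real mixture or variation between embryos.

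Named were the 15 genes with the widest difference each way among those past the rule with 1 symbol (1 probe set a gene, the brightest past the rule), a set of chamber genes whatever their value, and 2 members past the rule from each of 28 gene lists. Further list members and genes said to be chosen later complete the text. The members, lists and rules were chosen with earlier results of these data known. Alternatives covered the filter, normalization, a floor, the fold, single arrays, limma settings and pools left out.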

Additional observations from a re-analysis of the deposited data

Results flagged for a closer look

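For 4 named genes past the 2-fold rule at E6, a later pair passed it in the opposite direction. TTR differed by 4.32 at E6 and by -1.79 at E8, but by 3.61 after ligation and 2.64 at E10, both past the rule on the left as at E6. The limma contrast of E6 against the later pairs gave TTR an adjusted p of 0.827. ETS1 differed by -3.56 at E6 and by 2.46 at E10 at its named probe set (limma, adjusted p = 0.402). HYAL2 differed by -3.06 at E6 and by 1.17 at E10 (limma, adjusted p = 0.395). IRX5 differed by -1.03 at E6 and by 1.31 at E8 (limma, adjusted p = 0.432). None of the 4 contrasts passed the threshold, and the single reversals were not tested.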

How the results depend on the processing

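No paired analysis was possible because the replicate numbers mark technical arrays of a pool, which were averaged, so a block on these numbers pairs no samples. The limma fit already compared left with right within each stage and treatment. The 916 probe sets of the E6 comparison (308 left, 608 right) became 363 (125 and 238) with the filter at the 70th percentile, 2617 (1118 and 1499) at 1.5-fold and 146 (34 and 112) at 4-fold. Without replicate 1 they were 1012 and without replicate 2 they were 986. With no filter, quantile normalization, median centring, a floor at the filter level or overlap allowed they stayed between 778 and 944. With that floor, 48.2% of them kept their direction at both E8 and E10 (53.3% as reported) and the pool of both lay between the sides for 71.6% (64.4%). The limma count of 45 for the later pairs was 0 with no filter and 0 with the floor (4606 and 3585 at an unadjusted p under 0.05), 102 with the 70th percentile, 96 with median centring, 216 with an intensity trend, 2 without the ligated pair (2680 unadjusted) and 0 without the E6 pool of both (4263 unadjusted), and without 1 replicate it ranged from 0 (3245 unadjusted) to 48. The cause of these shifts was not tested, except that fewer probe sets or pools enter some of them. The limma counts for E6, and for E6 against later, were 0 under every alternative run. Of 414 values of 69 named probe sets, 0 reversed and 38 moved by more than their array spread. Of 174 list medians 6 changed sign, and the largest shift was 0.19. With 1 pool a side, no alternative measures variation between embryos, and dim signals limit the size of the widest folds.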
